A study of Mus musculus with 16 samples.

Results

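The genes of the synaptic vesicle release machinery were followed in hippocampal RNA sequencing of wild-type (WT) mice and of mice that express human Tau with the P301S mutation (hTau.P301S), each with or without nicotinamide riboside (NR), a precursor of NAD+. Members were chosen by a rule on gene symbols, set with earlier results of these data known. They were the synaptotagmins (Syt), synapsins (Syn1 to Syn3), synaptophysin (Syp), SV2 proteins (Sv2), syntaxins (Stx), syntaxin-binding proteins (Stxbp), VAMPs, SNAPs, complexins (Cplx), RIMs (Rims), Munc13 proteins (Unc13), the Rab3 genes Rab3a to Rab3d, synaptogyrins (Syngr), Napa, Napb and Nsf, with pseudogenes and unnamed transcripts left out. Of the 54532 genes listed, 82 matched, and 77 of these were among the 17555 genes that passed the filter on low counts over the 4 groups. The 5 members that did not pass were Vamp9, Cplx4, Syngr4, Stx19 and Syt8, each with a mean level of 0.317 CPM or less (CPM are counts scaled to library size). Another member, Snap91, encodes the clathrin adaptor AP180, which acts in endocytosis and shares only its symbol with the SNAP proteins.

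Vesicles loaded with transmitter are clustered by synapsins, docked at the active zone by RIM and Rab3, and primed by Munc13, which helps guide syntaxin, SNAP-25 and synaptobrevin (encoded by Vamp genes) into the SNARE complex that pulls vesicle and plasma membrane together. Synaptotagmins on the vesicle sense calcium and trigger fusion, complexins hold and then help the assembled complex, and NSF with the SNAP adaptors of Napa and Napb takes used complexes apart. In the hippocampus this machinery sits in the terminals of excitatory and inhibitory neurons, and loss of presynaptic proteins accompanies Tau pathology.

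Every group held 4 mice that, per the labels, entered treatment at 12 months of age and were sampled at 15 months after tests of behaviour. The text of the study gives younger ages at both points and, in a passage, a shorter treatment with NR, and the values of the labels are used here. NR-treated mice drank 6 mM NR for 3 months (WT + NR and hTau.P301S + NR), and vehicle-treated mice drank plain water (WT and hTau.P301S). The Thy1 promoter, which is active in neurons, drives the transgene, and the labels do not say whether WT mice were littermates. Libraries held 16490261 to 21915362 counts. Thy1 itself, whose regulatory sequence the transgene carries, lay at 667 to 1640 CPM in the 8 hTau.P301S mice of both treatments and at 424 to 633 CPM in the 8 WT mice, so the order matched the genotype labels. Markers of neurons were abundant in each library, with a summed level of 3447 to 7742 CPM over 8 genes. Markers of neighbouring regions were uneven: the sum over 6 genes of striatal neurons was 1464 CPM in WT replicate 2, 303 CPM in WT + NR replicate 3 and 509 CPM in hTau.P301S + NR replicate 4, against 65.3 to 166 CPM in the other 13 mice, and 10 markers of hippocampal subfields were lowest in the same 3 mice (486 to 652 CPM). The sum over 5 choroid plexus genes ran from 18.9 to 9776 CPM. In tissue RNA a smaller share of neurons and less RNA per neuron cannot be told apart, which applies to each value that follows.

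The library of hTau.P301S replicate 1 stood apart. Mitochondrial transcripts made up 14.4% of its counts, against 4.48% to 7.07% in the other 15 mice, and it had the fewest genes with a count (19467, against 22199 to 24918). Of the 77 release genes, 36 lay more than 2-fold from the WT median in this mouse, 10 above it and 26 below it, whereas no other mouse had more than 9. Over all genes, 50.4% lay that far from the WT median in this mouse, and 4.40% to 11.4% in the others. The share of release genes was thus near that of all genes. The deviation followed gene length: release genes under 3 kb had a median of 0.63 on the log2 scale above the WT median, and those over 8 kb a median of -1.28, with 0.79 and -1.03 over all genes of these lengths. Among the other 15 mice, the median over the 18 release genes longer than 8 kb stayed between -0.48 and 0.32. Microglial markers (5 genes) summed to 1562 CPM in this library and to 236 to 486 CPM elsewhere. Cplx2 was at 111 CPM there against 1357, 1466 and 1461 CPM in the other hTau.P301S mice, and Rab3a was at 1085 CPM against 559, 733 and 675 CPM. Each comparison that uses vehicle-treated hTau.P301S mice is therefore given with counts of members from fits with and without this library. Single values are given both ways for some genes.

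**Figure D1:**
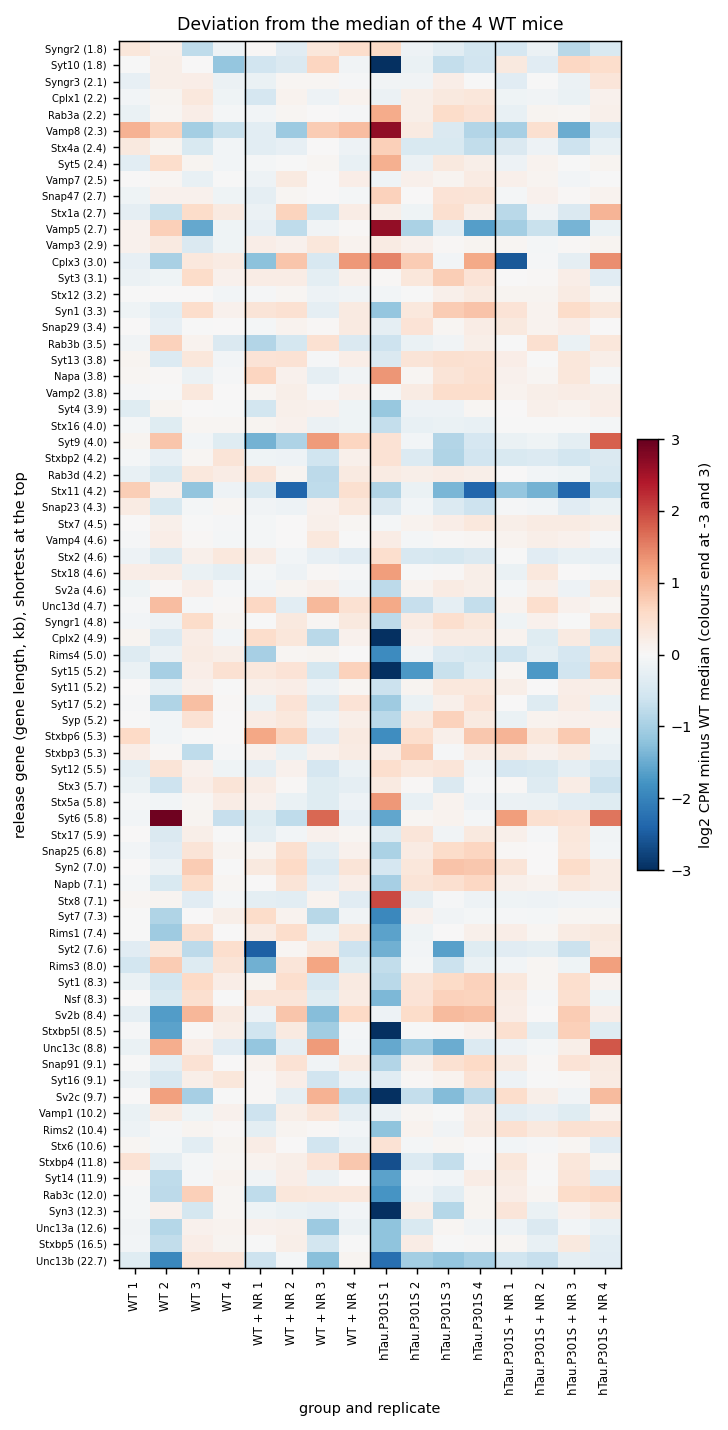
Colour map of log2 CPM minus the median of the 4 WT mice for 75 release genes (rows, ordered by gene length in kb, shortest at the top) in 16 mice (columns, by group and replicate). The column of hTau.P301S replicate 1 turns from red among short genes to blue among long ones (medians of 0.63 under 3 kb and -1.28 over 8 kb), and Syt6, Sv2c and Unc13c are red in WT replicate 2, WT + NR replicate 3 and hTau.P301S + NR replicate 4.

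Levels of the release genes covered a wide range. Per kilobase of gene length, averaged over 16 mice, the highest members were Vamp2 (synaptobrevin 2, 256 CPM per kb), Rab3a (the vesicle GTPase, 254), Cplx2 (244), Snap25 (235) and Cplx1 (235). These 5 did not separate: Vamp2 exceeded Rab3a in 12 of 16 mice, Rab3a exceeded Cplx2 in 7, Cplx2 exceeded Snap25 in 10 and Snap25 exceeded Cplx1 in 8. The next step was clear, since Cplx1 exceeded Syt11 (157 CPM per kb) in 15 of 16 mice. At the other end were Stx11 (0.108 CPM per kb), Syt15 (0.248), Unc13d (0.401), Syn3 (0.735) and Vamp5 (1.39); Stx11 and Unc13d are best known from immune cell secretion and Vamp5 from muscle. Summed over the 77 genes, the level was 14242 to 20851 CPM in WT mice, 14509 to 20389 CPM in WT + NR mice, 10992 to 22117 CPM in hTau.P301S mice and 16651 to 19679 CPM in hTau.P301S + NR mice, so all 4 groups overlapped, and the lowest sum was that of hTau.P301S replicate 1. Without the length correction, Snap25 led with 1599 CPM, followed by Syt1 with 1266 CPM, and 3 of the top 5 were shared by the 2 orders.

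Some paralogs of the synaptic SNARE group differed by a wide margin. Vamp2 exceeded Vamp1 in all 16 mice, by a median ratio of 19.5 per kb (range 12.2 to 26.3). Stx1a, a syntaxin of the synaptic plasma membrane, was at 30.3 CPM per kb. Snap25 exceeded Snap23, its counterpart outside neurons, by a median of 70.8 times. Its margin over Snap47 was small per kb, with a median ratio of 2.08, and Snap25 was the higher one in 15 of 16 mice. Without the length correction the means were 1599 CPM for Snap25 and 331 CPM for Snap47. Among the genes that varied least from mouse to mouse were SNAREs of endosomes, as Stx7 and Stx12 had within-group SDs of 0.086 and 0.099 on the log2 scale over the 15 mice other than hTau.P301S replicate 1, where the median over release genes was 0.28 and over all genes 0.31. Napa and Napb, the adaptors of NSF, stood at 67.3 and 72.5 CPM per kb, and Napa was the higher one in 3 of 16 mice.

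The synaptotagmins are labelled calcium sensors in the plot by role, though not all of them bind calcium. Among them, Syt11 (157 CPM per kb), which does not bind calcium, and Syt1 (152), the sensor of fast synchronous release, could not be ordered. Syt1 was the higher one in 8 of 16 mice. Syt2, the fast sensor of hindbrain and some inhibitory terminals, was at 5.77 CPM per kb, and Syt7, a sensor of slow release and facilitation, at 41.6. Cplx1 and Cplx2 were likewise close (a median ratio of 1.05 for Cplx2 over Cplx1), whereas Cplx3, the complexin of retina and subplate neurons, was lower than Cplx1 in every mouse by 36.8 times or more. In the priming group, Unc13a (23.0 CPM per kb) exceeded Unc13b (1.49) and Unc13c (3.80) in all 16 mice, and Rims1 (21.7) exceeded Rims2 (8.02) in all 16. Sv2a exceeded Sv2b in every mouse, and Sv2b exceeded Sv2c, the SV2 form of basal ganglia, in 15 of 16. Per kb, Syn1 was above Syn2 in all 16 mice, and Syn3 was at 0.735 CPM per kb. All these orders are per kb and rest on the deposited gene length. Without that correction, Syn2 was above Syn1 on average (659 against 493 CPM), and Sv2a and Sv2b were close (444 and 423 CPM). Syt1 then stood at 1266 CPM against 815 CPM for Syt11, and Cplx2 at 1205 CPM against 514 CPM for Cplx1.

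**Figure D2:**
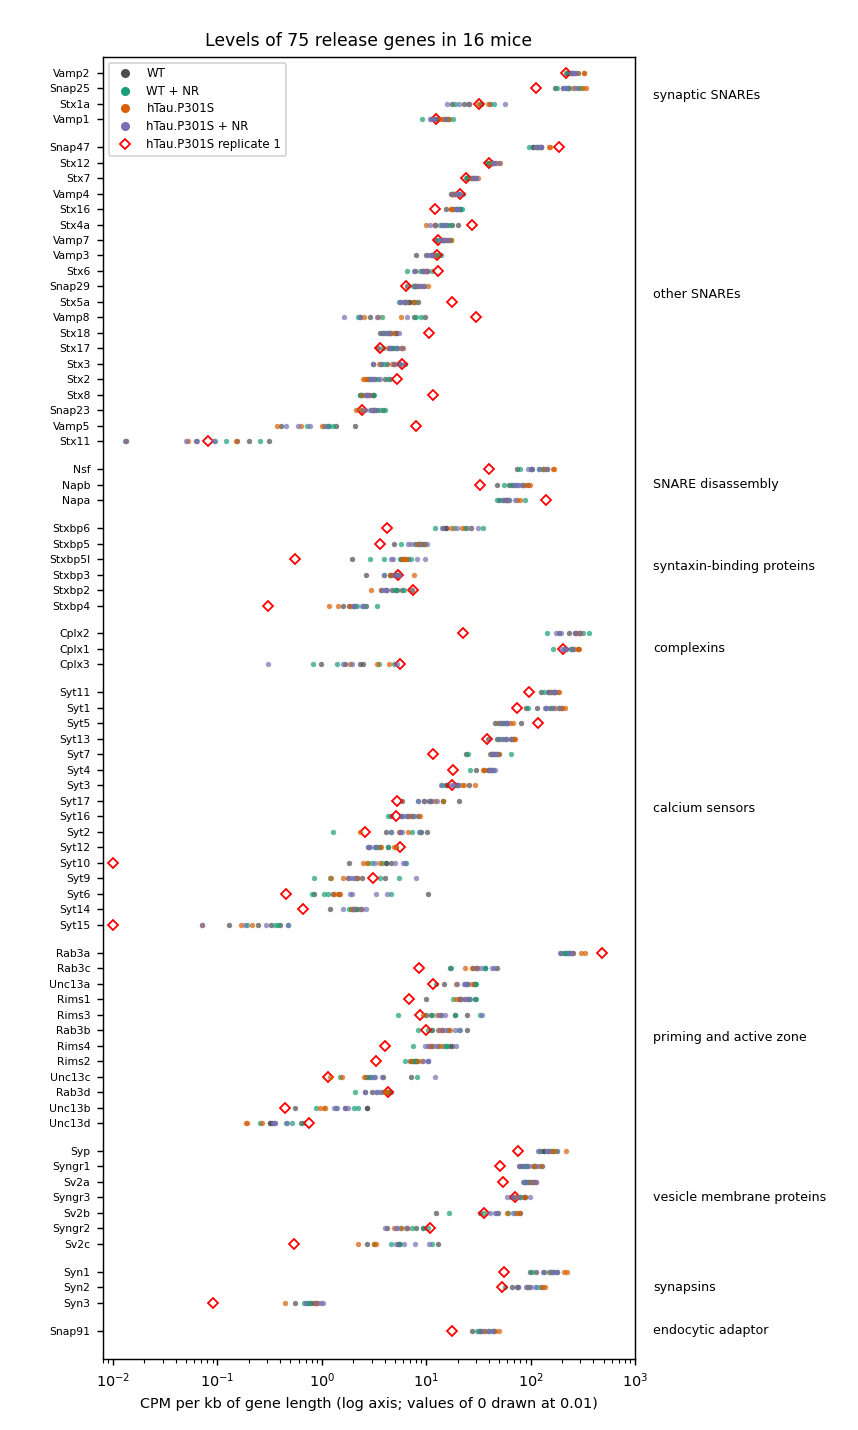
Level of 75 release genes in CPM per kb of gene length (log axis) in 16 mice, grouped by role; each point is a mouse, coloured by group, and the open red diamond is hTau.P301S replicate 1. Points of a gene lie close together beside a range over genes from 0.108 (Stx11) to 256 (Vamp2) CPM per kb, and the diamond leaves the other points at genes such as Cplx2 and Vamp8.

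hTau.P301S mice were first compared with WT mice, both vehicle-treated, to see which release genes differed with the transgene. No release gene was called (adjusted p under 0.05 and absolute log2 fold change over 0.5, edgeR quasi-likelihood test), where 0.00611% of the 16375 genes tested were. At an unadjusted p under 0.05, 3 of 77 members were higher and 3 lower, against 3.41% and 3.73% of all genes, so the members' shares were near the background. The median log2 fold change of the members was 0.03, and over all genes it was 0.02. DESeq2 on the same 8 mice called no member, and DESeq2 with all 16 mice in 1 fit called Rab3a alone (log2 fold change 0.61, adjusted p = 0.0462) among the members, where 2.81% of the 17555 genes were called.

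The smallest p belonged to Unc13c, encoding Munc13-3, a priming factor known best from the cerebellum. Its levels were 10.1, 13.8, 10.5 and 22.1 CPM in hTau.P301S mice and 25.6, 62.9, 33.8 and 23.3 CPM in WT mice. All 4 hTau.P301S mice lay below all 4 WT mice, the only release gene for which the groups did not overlap, which 6.24% of all genes did. The log2 fold change was -1.37 ± 0.39 (SE, edgeR adjusted p = 0.598; exact permutation p = 0.0286, the smallest that 4 against 4 mice allow, and 0.453 after adjustment over all genes). Leaving out WT replicate 2, the mouse rich in striatal markers, gave -0.98, and leaving out hTau.P301S replicate 1 gave -1.25.

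Sv2c, a vesicle glycoprotein of basal ganglia terminals, was at 5.30, 32.0, 21.5 and 30.9 CPM in hTau.P301S mice and at 53.3, 125, 26.6 and 52.6 CPM in WT mice. The groups overlapped through WT replicate 3, and the highest value came from WT replicate 2, whose striatal marker sum was also the highest. Its log2 fold change of -1.53 ± 0.60 (SE, edgeR adjusted p = 0.598) became -0.99 without that WT mouse. Unc13b, encoding Munc13-2, had 10.0, 23.6, 21.7 and 24.3 CPM in hTau.P301S mice and 37.6, 12.5, 61.9 and 61.9 CPM in WT mice, with a log2 fold change of -1.13 ± 0.49 (edgeR adjusted p = 0.598), which was -0.66 with a trend on gene length removed. Without hTau.P301S replicate 1 its log2 fold change was -0.91. WT replicate 2 was below 3 of the 4 hTau.P301S mice for this gene, and the WT values spread widely. The 6 striatal marker genes were all lower in the same comparison, with a median log2 fold change of -2.51 and 4 at an unadjusted p under 0.05. Their sum was 1464 CPM in WT replicate 2, 72.6 to 147 CPM in the other WT mice and 74.2 to 130 CPM in hTau.P301S mice. Of 10 hippocampal subfield markers, 7 were higher (median 0.45). The part of these markers in the 3 differences was not tested.

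On the higher side were Cplx3, Rab3a and Napa. Rab3a, which couples vesicles to RIM, was at 1085, 559, 733 and 675 CPM in hTau.P301S mice and at 435, 521, 570 and 476 CPM in WT mice. Only the WT mouse at 570 CPM overlapped the hTau.P301S range, and the log2 fold change of 0.61 ± 0.26 (SE, edgeR adjusted p = 0.598) became 0.38 without hTau.P301S replicate 1 (adjusted p = 0.407). Napa was at 538, 225, 280 and 300 CPM against 226, 220, 190 and 210 CPM, and its log2 fold change moved from 0.67 to 0.34 without that mouse. Cplx3 was low throughout (5.45 to 16.5 CPM in hTau.P301S mice, 2.91 to 7.28 CPM in WT mice), with a log2 fold change of 1.04 ± 0.41 (edgeR adjusted p = 0.598). Without hTau.P301S replicate 1 it was 0.78.

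Of the 16 core genes of release, 10 were higher and 6 lower in hTau.P301S mice, with a median log2 fold change of 0.13. Without hTau.P301S replicate 1, 15 of the 16 were higher and the median was 0.27, beside -0.03 over all genes. Nsf, the ATPase that recycles SNAREs, then had 0.55 ± 0.22 (SE, edgeR adjusted p = 0.404), Syn1 0.57 ± 0.23 (adjusted p = 0.407), Snap25 0.46 ± 0.20 (adjusted p = 0.427) and Vamp2 0.35 ± 0.15 (adjusted p = 0.422). For Snap25, hTau.P301S mice had 759, 1750, 2159 and 2300 CPM, and WT mice had 1391, 1152, 1918 and 1546 CPM. Replicate 1 was below all WT mice, whereas the other 3 hTau.P301S mice lay above at least 3 of the 4 WT mice. Cplx2 behaved in a like manner, with a log2 fold change of -0.15 in all mice and 0.23 without replicate 1. None of these values passed the edgeR test, with or without that mouse. General neuronal markers were split (4 of 8 higher, median 0.10, and 4 of 8 higher without that mouse, median 0.03), and all 5 oligodendrocyte markers were higher (median 0.69; 0.50 without it); their part in the core genes' values was not tested. Over all 77 members without it, none was called (0.0832% of 16835 genes were), 6 were higher and 5 lower at an unadjusted p under 0.05, against 5.16% and 6.63% of all genes, and the median was 0.10.

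By role, the disassembly genes Nsf, Napa and Napb were all higher (median log2 fold change 0.26; 0.42 without replicate 1), and 10 of the 12 priming and active zone genes were lower (median -0.26; 8 of 12 and -0.18 without it). Synaptotagmins were split, with 7 of 16 higher in all mice and 9 of 16 without replicate 1. The 20 SNAREs outside the synaptic set had 15 higher in all mice and 9 higher without replicate 1. Vamp8 and Stx8, SNAREs of secretory and endosomal traffic, were at 69.2 and 82.7 CPM in that mouse against at most 22.4 and 22.6 CPM in any other. No role had a called gene in either set of mice.

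The genotype difference was measured again in NR-treated mice, which shared no mouse with the vehicle-treated comparison. No release gene was called in hTau.P301S + NR relative to WT + NR (0.054% of 16671 genes were), by edgeR or by DESeq2. At an unadjusted p under 0.05, 1 of 76 members (Stx11 was too low to be tested with NR-treated hTau.P301S mice) was higher and 1 lower, against 2.42% and 3.67% of all genes. The ranges of 3 members did not overlap between the groups, Rims2 and Stx7 being higher and Vamp3 lower, while 3.73% of all genes did not overlap. Rims2, encoding the active zone scaffold RIM2, was at 109, 97.8, 109 and 107 CPM in hTau.P301S + NR mice and at 65.4, 84.8, 82.0 and 75.3 CPM in WT + NR mice. Every hTau.P301S + NR mouse was above every WT + NR mouse, and the log2 fold change was 0.46 ± 0.10 (SE, edgeR unadjusted p = 0.00135, adjusted p = 0.470). DESeq2 on these 8 mice gave Rims2 an adjusted p of 0.0191, with a fold change under the limit for a call. Syngr2, a synaptogyrin found mainly outside neurons, was at 9.10, 11.4, 7.17 and 9.38 CPM against 13.1, 10.2, 16.4 and 18.7 CPM, with a log2 fold change of -0.66 ± 0.22 (edgeR adjusted p = 0.781). The 3 that followed by p were Syn3 (0.33), Stx7 (0.17) and Stxbp2 (-0.31), each with an adjusted p of 0.781. The 16 core genes lay between -0.22 and 0.20. Without WT + NR replicate 3, which had a high striatal marker sum, 6 members were higher and 4 lower at an unadjusted p under 0.05 (5.63% and 5.54% of all genes), and none was called, against 0.183% of 16902 genes.

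Direction was shared by the vehicle-treated and NR-treated genotype comparisons in 38 of 76 release genes (50%), where 45.1% of all genes tested in both shared it. Without hTau.P301S replicate 1 the share was 46 of 76 (60.5%), beside 58.2% of all genes. Unc13c and Sv2c had opposite signs in the comparisons (-1.37 and 0.51 for Unc13c, -1.53 and 0.27 for Sv2c), and Rab3a was 0.61 in vehicle-treated and 0.03 in NR-treated mice. Averaged over NR in the fit of all 16 mice, no member was called by edgeR or DESeq2 (0.159% of 17555 genes by edgeR), and 2 were higher and 2 lower at an unadjusted p under 0.05 (3.99% and 5.07% of all genes). The smallest p values were those of Rab3a (0.32 ± 0.13, edgeR adjusted p = 0.468), Snap47 (0.25), Stx11 (-1.19), Snap23 (-0.28) and Unc13b (-0.61). Stx11, counted among the lower ones, had a mean of 0.455 CPM. It passed the low-count filter in the pairwise fits with vehicle-treated WT mice and failed it in those without them. Its lower value in hTau.P301S mice is therefore no support for a difference. Without hTau.P301S replicate 1, 8 members were higher and 8 lower at that p (6% and 8.73% of all genes), none was called (0.436% of 17897 genes were), and Rab3a was at 0.21 (edgeR adjusted p = 0.287).

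**Figure D3:**
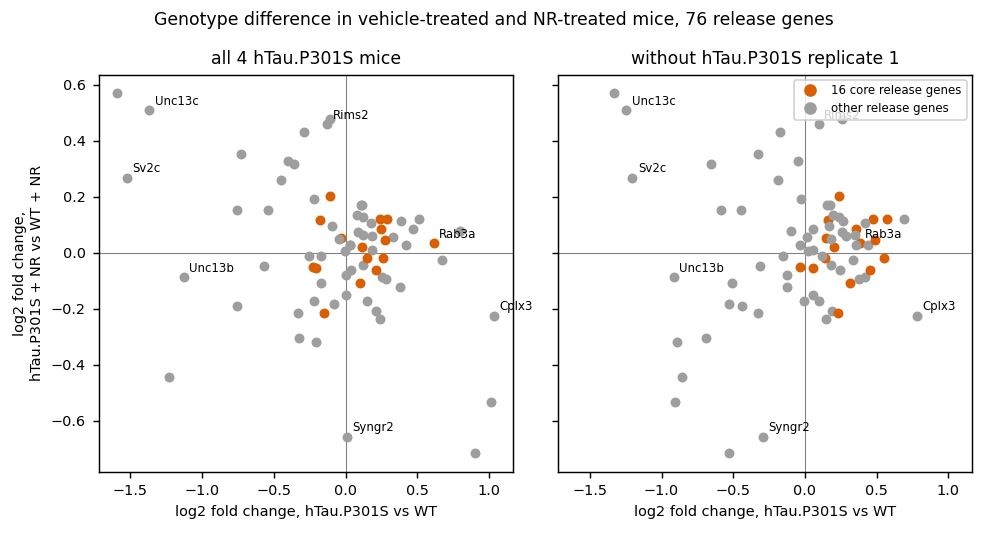
Log2 fold change of 76 release genes in hTau.P301S against WT (x axis) and in hTau.P301S + NR against WT + NR (y axis), with all mice (left) and without hTau.P301S replicate 1 (right); orange points are 16 core genes. In the left panel 38 of 76 points share a sign on both axes and in the right panel 46 of 76, as the core genes move to the right of 0 (15 of 16).

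The response to NR in hTau.P301S mice was compared next, which shares the vehicle-treated hTau.P301S mice with the first genotype comparison, so that a gene low in those mice tends to be high here. No release gene was called by edgeR (0.0061% of 16386 genes were). At an unadjusted p under 0.05, 5 of 76 members were higher and 3 lower with NR, against 5.86% and 7.01% of all genes. The groups did not overlap for 10 members, 7 higher and 3 lower, where 11.9% of all genes did not. DESeq2 called Unc13c (log2 fold change 1.81, adjusted p = 0.0365) and Syt12 (-0.71, adjusted p = 0.0191) among 1.73% of all genes. The median over members was -0.01 and over all genes -0.03.

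Syt12, a synaptotagmin that does not bind calcium, had the smallest p. It was at 15.5, 15.9, 18.3 and 15.7 CPM in hTau.P301S + NR mice and at 31.2, 27.2, 28.3 and 20.4 CPM in hTau.P301S mice. Every NR-treated mouse was below every vehicle-treated one, with a log2 fold change of -0.72 ± 0.18 (SE, edgeR adjusted p = 0.350), and leaving out any mouse gave -0.82 to -0.62. WT mice, at 17.9, 28.6, 24.0 and 20.2 CPM, and WT + NR mice, at 18.3, 23.9, 15.4 and 19.6 CPM, overlapped.

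Unc13c was at 26.5, 28.3, 33.2 and 108 CPM in hTau.P301S + NR mice, above the 10.1 to 22.1 CPM of hTau.P301S mice. The log2 fold change of 1.79 ± 0.51 (SE, edgeR adjusted p = 0.367) was 1.05 without hTau.P301S + NR replicate 4, the mouse at 108 CPM and with a striatal marker sum of 509 CPM. Sv2c, at 76.3, 59.8, 49.5 and 102 CPM with NR, was likewise above all hTau.P301S mice (1.68 ± 0.49, edgeR adjusted p = 0.367), and so was Unc13b at 32.1, 29.6, 40.3 and 37.9 CPM (0.81 ± 0.27, adjusted p = 0.367), whose log2 fold change was 0.25 with the length trend removed. Syt6, at 19.3, 11.3, 10.8 and 24.6 CPM against 2.65, 8.26, 8.66 and 7.70 CPM, had 1.27 ± 0.41 (adjusted p = 0.367). For Sv2c and Unc13b the NR-treated hTau.P301S values lay inside the WT range. Those of Syt6 lay above 3 of the 4 WT mice and below WT replicate 2 (61.0 CPM). The striatal marker genes were higher in the same comparison: all 6 had a positive log2 fold change, with a median of 1.70, and 5 had an unadjusted p under 0.05. Their sum was 69.9 to 166 CPM in the NR-treated hTau.P301S mice other than replicate 4, beside 74.2 to 130 CPM in the vehicle-treated ones. The part of the marker difference in that of the release genes was not tested. Rab3a was lower in every NR-treated mouse (427, 529, 518 and 549 CPM against 1085, 559, 733 and 675 CPM), with a log2 fold change of -0.60 ± 0.25 (edgeR adjusted p = 0.367) and -0.36 without hTau.P301S replicate 1.

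The 4 genes with an unadjusted p under 0.05 in both comparisons that use the vehicle-treated hTau.P301S mice were Unc13c, Sv2c, Unc13b and Rab3a. They were chosen after their values were seen, from comparisons that share those mice, and none was called by edgeR in either. To show what lies before their starts, the 250 bases before their RefSeq start sites (GRCm38.p6) are shown 5′ to 3′ on the gene's strand, with GC boxes (GGGCGG on either strand) in capitals. They lie at chr9:73969038-73969287 (minus strand) for Unc13c, chr13:96132578-96132827 (minus strand) for Sv2c, chr4:43058703-43058952 (plus strand) for Unc13b and chr8:70754453-70754702 (plus strand) for the first of the 2 starts listed for Rab3a.
Unc13c: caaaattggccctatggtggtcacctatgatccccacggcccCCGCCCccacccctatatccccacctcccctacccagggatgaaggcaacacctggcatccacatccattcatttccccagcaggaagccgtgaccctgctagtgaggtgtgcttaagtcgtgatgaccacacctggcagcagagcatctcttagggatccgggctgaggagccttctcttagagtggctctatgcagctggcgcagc
Sv2c: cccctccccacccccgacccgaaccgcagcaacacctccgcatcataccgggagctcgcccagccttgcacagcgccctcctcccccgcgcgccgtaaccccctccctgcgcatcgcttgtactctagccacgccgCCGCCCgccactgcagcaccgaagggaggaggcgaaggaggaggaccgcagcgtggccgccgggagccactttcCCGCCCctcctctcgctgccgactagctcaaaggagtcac
Unc13b: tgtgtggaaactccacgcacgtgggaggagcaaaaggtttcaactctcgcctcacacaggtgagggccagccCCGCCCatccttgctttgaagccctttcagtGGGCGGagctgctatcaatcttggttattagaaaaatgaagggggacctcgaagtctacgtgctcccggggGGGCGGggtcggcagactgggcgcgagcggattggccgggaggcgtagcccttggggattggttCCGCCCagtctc
Rab3a: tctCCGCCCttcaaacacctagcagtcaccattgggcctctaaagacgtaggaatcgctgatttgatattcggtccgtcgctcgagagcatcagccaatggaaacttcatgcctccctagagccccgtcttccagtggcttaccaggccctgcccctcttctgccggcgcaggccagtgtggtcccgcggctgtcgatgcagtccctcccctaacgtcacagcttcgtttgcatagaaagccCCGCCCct
All 4 windows held a GC box, with 1 in Unc13c, 2 in Sv2c, 4 in Unc13b and 2 in Rab3a. A GC box was in 32.7% of the 32851 mouse promoter windows of this length and in 60.8% of the 79 windows listed for 63 of the members, so GC boxes were common among the members as a whole. None of the 4 held a TATAAA element (12.4% of all windows, 6.33% of member windows), and Unc13b alone held the E-box CACGTG (6.02% and 13.9%).

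Core genes again depended on hTau.P301S replicate 1. With all mice, 6 of 16 were higher and 10 lower under NR (median log2 fold change -0.08). Without it, 15 of 16 were lower, with a median of -0.29, and 6 had an unadjusted p under 0.05. Snap25 had -0.42 ± 0.14 (SE, edgeR adjusted p = 0.175), Cplx1 -0.33 ± 0.12 (adjusted p = 0.197), Nsf -0.43 ± 0.16 (adjusted p = 0.214), Rab3a -0.36 ± 0.14 (adjusted p = 0.216), Syp -0.37 ± 0.14 (adjusted p = 0.227) and Vamp2 -0.26 ± 0.11 (adjusted p = 0.261). Rims1 was the exception, at 0.19. Of the 8 neuronal markers, 3 were higher and 5 lower in both sets of mice (median -0.11 in all mice, -0.19 without it). Of the 10 hippocampal subfield markers, 8 were lower (median -0.55; 8 of 10 and -0.47 without it), and all 4 markers of thalamic neurons were higher (median 0.41; 0.79 without it). Endothelial markers were higher in 3 of 4 (median 0.71; 4 of 4 and 0.43 without it), and the part of these lists in the core genes' values was not tested. Over all members tested without that mouse, 11 were higher and 12 lower at an unadjusted p under 0.05 (10.6% and 7.4% of all genes) and none was called, against 0.197% of 16734 genes. Sv2c had the smallest p among them (1.37 ± 0.25, edgeR adjusted p = 0.0632), followed by Unc13b (0.60 ± 0.14, adjusted p = 0.0850) and Syt12 (-0.62 ± 0.14, adjusted p = 0.0871). In the plot of 9 genes by mouse, the open red point lies below its group for Sv2c, Unc13b, Syt6, Rims2, Snap25 and Cplx2. It lies above its group for Rab3a and within or near it for Unc13c and Syt12.

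**Figure D4:**
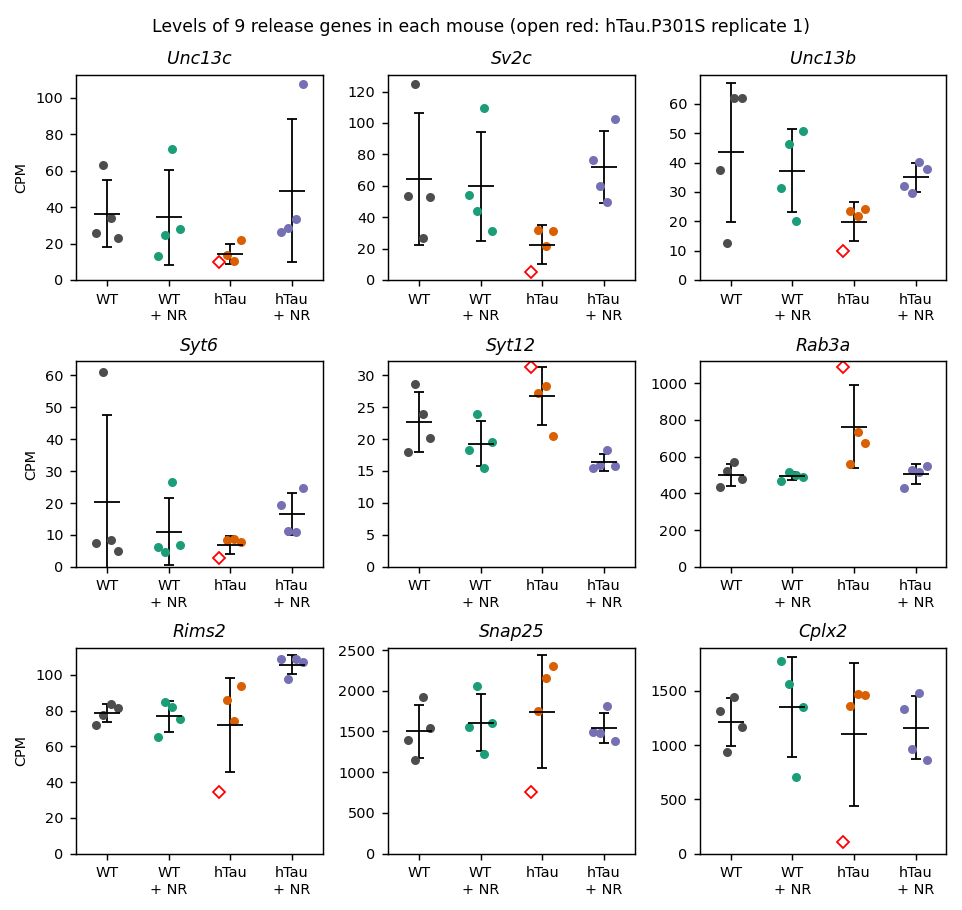
CPM of 9 release genes in each of 16 mice by group (hTau stands for hTau.P301S); points are mice, horizontal bars are group means, whiskers are SD (4 mice, cut at 0) and the open red diamond is hTau.P301S replicate 1. Unc13c is below all WT mice in the 4 hTau.P301S mice, and Syt12 in the 4 NR-treated hTau.P301S mice lies below the 4 vehicle-treated ones. The diamond lies apart from its group for Sv2c, Unc13b, Syt6, Rab3a, Rims2, Snap25 and Cplx2.

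By role, 10 of the 12 priming and active zone genes were higher with NR in hTau.P301S mice (median log2 fold change 0.42), and 9 of 12 without replicate 1 (0.28). Beside Unc13c and Unc13b these included Rims2, Rims3 and Rab3c. Rims2 was at 109, 97.8, 109 and 107 CPM in NR-treated and at 34.3, 85.9, 74.4 and 93.8 CPM in vehicle-treated hTau.P301S mice, with no overlap and a log2 fold change of 0.55 ± 0.28 (SE, edgeR adjusted p = 0.369), and 0.33 without replicate 1 (adjusted p = 0.159). Nsf, Napa and Napb were all lower (median -0.14; -0.27 without replicate 1), and the 5 synaptic SNAREs had 4 lower in all mice and 5 lower without it.

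In WT mice no release gene passed the test with NR. None was called by edgeR or DESeq2, and none of 77 had an unadjusted p under 0.05. Over all 16714 genes 0% were called, 0.371% were higher and 0.419% lower at that p, and 0.754% did not overlap between the groups, which no release gene did. Stxbp4 (log2 fold change 0.34 ± 0.20), Syt13 (0.26 ± 0.18), Vamp3 (0.22 ± 0.16), Stxbp6 (0.40 ± 0.30) and Snap29 (0.15 ± 0.12) had the smallest p values, each with an edgeR adjusted p of 0.999942. Members lay between -0.88 and 0.52, with a median of 0.03. The direction of the NR difference was shared by WT and hTau.P301S mice, comparisons with no mouse in common, in 41 of 76 members (53.9%) and in 53.8% of all genes. Without hTau.P301S replicate 1 it was shared in 32 of 76 (42.1%) and in 49.2% of all genes.

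Whether the NR difference itself differed by genotype was tested with the interaction over 16 mice. No member and no gene was called (0% of 17555 genes, edgeR adjusted p under 0.05), and DESeq2 called no member. At an unadjusted p under 0.05, 2 members had a more positive and 1 a more negative NR difference in hTau.P301S mice, against 3.29% and 4.63% of all genes. The 5 smallest p values belonged to Unc13c (1.87 ± 0.77 on the log2 scale, edgeR adjusted p = 0.558), Sv2c (1.79 ± 0.75, adjusted p = 0.558), Rab3a (-0.57 ± 0.26, adjusted p = 0.558), Syt6 (2.15 ± 1.06, adjusted p = 0.558) and Napa (-0.69 ± 0.35, adjusted p = 0.558). Without WT replicate 2, the value of Syt6 was 0.61, and without hTau.P301S + NR replicate 4 that of Unc13c was 1.14. Without hTau.P301S replicate 1, Rab3a was at -0.35 and Napa at -0.36, and 3 members were more positive and 1 more negative at that p (4.15% and 3.35% of all genes), with 0% of 17897 genes called. Syt6 was at 61.0 CPM in WT replicate 2 against 4.87 to 8.49 CPM in the other WT mice, and at 26.6 CPM in WT + NR replicate 3 against 4.70 to 6.71 CPM, and both mice had high striatal marker sums.

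A list of 32 other presynaptic genes (scaffolds, transporters, endocytic and vesicle proteins) had no edgeR call in either pairwise comparison that uses the vehicle-treated hTau.P301S mice. It had 1 edgeR call in hTau.P301S + NR relative to WT + NR, where 0.054% of all genes were called. Averaged over NR it had 1 as well, where 0.159% of all genes were called. In hTau.P301S relative to WT, 14 of the 32 were higher and 18 lower, with 1 at an unadjusted p under 0.05, Tspoap1 (encoding a RIM-binding protein, -0.72 ± 0.29, edgeR adjusted p = 0.598). With NR in hTau.P301S mice 23 were higher and 9 lower, and 12 and 20 without hTau.P301S replicate 1. Slc18a2, the vesicular monoamine transporter, had 0.87 ± 0.23 and Slc32a1, the vesicular GABA transporter, 0.65 ± 0.25 in that comparison, each with an edgeR adjusted p of 0.367. DESeq2 called 2 of the 32, Slc18a2 among them (adjusted p = 0.0189), beside the 1.73% of all genes given above.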

How the data were processed

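Hippocampal RNA of 16 mice in 4 groups was measured as gene counts. The study's methods describe poly(A) selection, a NEBNext Ultra library, STAR alignment to mm10 and RSEM quantification; the labels name FastQC and Trim Galore without versions, and strand handling is not given in the sources used here. The deposited table holds whole-number counts per gene, as the authors made them, with a gene length whose definition the file does not give. Members and lists were chosen with earlier results of these data known. CPM (counts scaled by library size) were computed by the cpm function of edgeR with TMM-scaled library sizes, which ran from 16490261 to 21915362 counts before scaling, and divided by the deposited gene length for levels per kb. Each comparison was fitted over all genes kept by filterByExpr with edgeR 4.0.16 (glmQLFit, glmQLFTest; R 4.3.3), Benjamini-Hochberg adjusted over all genes tested; a call needed adjusted p < 0.05 and absolute log2 fold change > 0.5, and the interaction adjusted p alone. The SE given with an edgeR log2 fold change is its absolute value divided by the square root of the quasi-likelihood F statistic. Single values were also compared by a two-sided exact permutation test over mice. Alternatives were DESeq2 1.42.0, other scalings and filters, a robust fit, a replicate block and leaving out each mouse. The fitting code was tested on simulated data. Genes named with values were the core genes, the 5 members with the smallest p in each comparison, called members, and the 5 highest and lowest by level per length. Some genes that this rule names are not reported here. Roles and non-overlapping or list genes were named in addition after their values were seen. Positions (81 of 82 members matched) and promoters come from GENCODE vM21 and RefSeq on GRCm38, the build of mm10. Samples are taken as single mice, as in the study's text; the labels do not state it, nor a shared litter or day for replicate numbers, and p-values measure the spread between these samples. No columns were identical between mice, and 0 value columns were left unused.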

Additional observations from a re-analysis of the deposited data

Results flagged for a closer look

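Within a group of 4 mice, a value was noted where its gap to the nearest other mouse took up nearly the whole range of the group (Dixon's test). This held for 14 of 144 sets of values, and chance alone gives about 1 in 20. In hTau.P301S replicate 1, Cplx2 was at 111 CPM (1357 to 1466 in the other mice of its group), Syt13 at 143 CPM (251 to 269) and Syt6 at 2.65 CPM (7.70 to 8.66). Syt6 was at 61.0 CPM in WT replicate 2 (4.87 to 8.49) and at 26.6 CPM in WT + NR replicate 3 (4.70 to 6.71), and Unc13c was at 108 CPM in hTau.P301S + NR replicate 4 (26.5 to 33.2). In WT replicate 3, Vamp2 was at 1079 CPM (849 to 872), Syn2 at 895 CPM (466 to 538) and Syp at 944 CPM (663 to 702). Smaller gaps were Snap29 at 22.7 CPM in WT replicate 2 (26.7 to 27.2), Stxbp6 at 124 CPM in WT replicate 1 (77.3 to 82.9), Syp at 613 CPM in hTau.P301S + NR replicate 1 (747 to 763), Syt12 at 18.3 CPM in hTau.P301S + NR replicate 3 (15.5 to 15.9) and Rims2 at 97.8 CPM in hTau.P301S + NR replicate 2 (107 to 109).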

How the results depend on the processing

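No release gene was called by edgeR in any of the 6 comparisons under another scaling, filter, robust fit, adjusted p alone, removal of mitochondrial genes or of a gene length trend, all 16 mice in 1 fit or leaving out any mouse. DESeq2 called 2 members for NR in hTau.P301S mice with 8 mice and 2 with all 16 mice in 1 fit, and 1 in hTau.P301S relative to WT with 16 mice; the 16-mouse fits called 287 and 494 of 17555 genes. The cause was not tested. Over all genes, DESeq2 called 115 in hTau.P301S relative to WT (edgeR 1), 283 for NR in hTau.P301S mice (edgeR 1), 58 in hTau.P301S + NR relative to WT + NR (edgeR 9), 167 averaged over NR (edgeR 28) and 18 for the interaction (edgeR 0). The 16-mouse DESeq2 fit and the removal of a trend on gene length were chosen after seeing the data, as was leaving hTau.P301S replicate 1 out of the counts by list. Each median over members moved by less than the SD between mice. With the replicate number as a block, 0 members were called in every comparison. Deviations of same-numbered mice correlated between -0.54 and 0.29. Such correlations cannot show whether a replicate number stands for a shared litter or day.

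Of 1175 fold changes of named genes recomputed, 32 changed sign. With the length trend removed, hTau.P301S relative to WT gave -0.010 for Stx1a, -0.016 for Cplx1 and 0.039 for Unc13a, and NR in hTau.P301S mice gave 0.080 for Stx1a, -0.25 for Unc13a and 0.064 for Syn1. The same removal gave Rab3a 0.37, -0.29 and -0.33 in hTau.P301S relative to WT, for NR in hTau.P301S mice and for the interaction (0.61, -0.60 and -0.57 without it), Unc13b -0.66 and 0.25 in the first pair (-1.13 and 0.81) and Rims2 0.27 for NR in hTau.P301S mice (0.55). For NR in hTau.P301S mice, Syn1 was 0.0067 with at least 10 counts in every mouse, and the replicate block gave 0.026 for Syt1, 0.13 for Syn1 and 0.0037 for Nsf. Leaving out each mouse in turn, hTau.P301S relative to WT gave -0.049 to 0.34 for Stx1a, -0.32 to 0.23 for Cplx2, -0.45 to 0.055 for Rims1, -0.11 to 0.31 for Syp and -0.13 to 0.15 for Sv2a. NR in hTau.P301S mice gave -0.29 to 0.093 for Syt1, -0.62 to 0.12 for Stx1a, -0.29 to 0.25 for Cplx2, -0.048 to 0.31 for Unc13a, -0.30 to 0.19 for Syn1, -0.37 to 0.046 for Syp, -0.10 to 0.18 for Sv2a and -0.43 to 0.024 for Nsf. In 6 of these cases the sign changed without hTau.P301S replicate 1. Members under about 1 CPM rest on few counts.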
